A study of Magallana angulata with 9 samples.

Results

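The genes described here are those whose count went between 0 and at least 20 within a single pool of oyster larvae. A gene was taken when, among the 3 libraries of any 1 pool, it had 0 counts in at least 1 library and 20 or more in another, with estimates rounded to the nearest whole count. This rule found 120 of the 28372 genes listed, and 21223 of the listed genes reached 20 counts in any library. The rule reads the counts themselves, so the presence of zeros beside high values in these genes is how they were chosen and not a finding. The genes are called switching genes below, and a gene with such a change in a given pool is called a switch in that pool.

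The libraries came from whole D-larvae of the Portuguese oyster *Crassostrea angulata*, taken 24 to 30 h after fertilization. There were 3 pools of larvae, each bred from 3 males and 3 females, and every pool was sampled in 3 conditions, which gives 9 polyA RNA libraries. Fresh larvae were kept in filtered seawater with no additive. Cryoprotectant exposed larvae spent 3 min at 4 °C in 10% dimethyl sulfoxide, 1% polyvinylpyrrolidone and 0.2 M sucrose and were then diluted in seawater. Cryopreserved larvae went through the same solution and were frozen, kept for 2 months in liquid nitrogen, thawed at 37 °C for 10 s and left for 1 h in a recovery bath. The recovery bath was part of the cryopreserved condition alone, so freezing and recovery cannot be told apart. Cryopreserved larvae were also collected after the 2 months of storage, so time of collection goes with that condition. The larvae of a pool share these parents and were reared together, and the unit of replication is the pool (n = 3). A library holds many larvae, so fewer cells that express a gene and less RNA per cell cannot be told apart.

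The D-larva is the straight-hinged veliger, the stage at which a bivalve has secreted its first shell and swims with a ciliated velum. Dimethyl sulfoxide enters cells and lowers the amount of ice that forms in them, while polyvinylpyrrolidone and sucrose stay outside and draw water out of the cell before freezing. Oysters are known for very polymorphic genomes and for large gene families with similar copies. Salmon, the program behind these counts, divides a read that fits several transcripts among them by likelihood, so a count estimate need not be a whole number, and reads from near-identical copies cannot be assigned with certainty. The genes carry NCBI gene numbers, and 0 of the numbers matched the gene table at hand, which is of *C. angulata* and not of the *Crassostrea gigas* genome used for the counts. Roles, families and sequences are therefore not given for any gene, and the larval stage could not be checked against marker genes.

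The totals of the libraries ran from 22367780 to 24440543 counts in cryopreserved larvae, from 24482043 to 45051399 in fresh larvae and from 33643297 to 45990672 in cryoprotectant exposed larvae. All 3 cryopreserved libraries were thus shallower than the other 6. A count of 0 allows up to 3 counts, which corresponds to between 0.0582 CPM in fresh pool 3 and 0.151 CPM in cryopreserved pool 2, where CPM is the count scaled to library size after TMM normalization. Such floors cover counting error only. Together the switching genes held 0.0143% of all counts in the library where they were scarcest and 0.0642% where they were richest.

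Most switching genes were low. The highest count of a gene over the 9 libraries had a median of 52, with quartiles of 28 and 132, and the mean count over the libraries had a median of 17.4, against 175.6 for all genes with any count. In 35 genes the highest count reached 100, and in 3 genes it reached 1000. At the edge of the rule, 9 genes reached exactly 20 counts opposite a 0 and 11 genes stopped at 19, so the rule divides a continuous range. Of the 1080 values of these genes, 379 were 0, and all 379 were exactly 0 in the deposited estimates, with 0 of them produced by rounding. A total of 45 genes had 1 library at 0, and 8 genes had counts in a single library out of the 9.

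**Figure D1:**
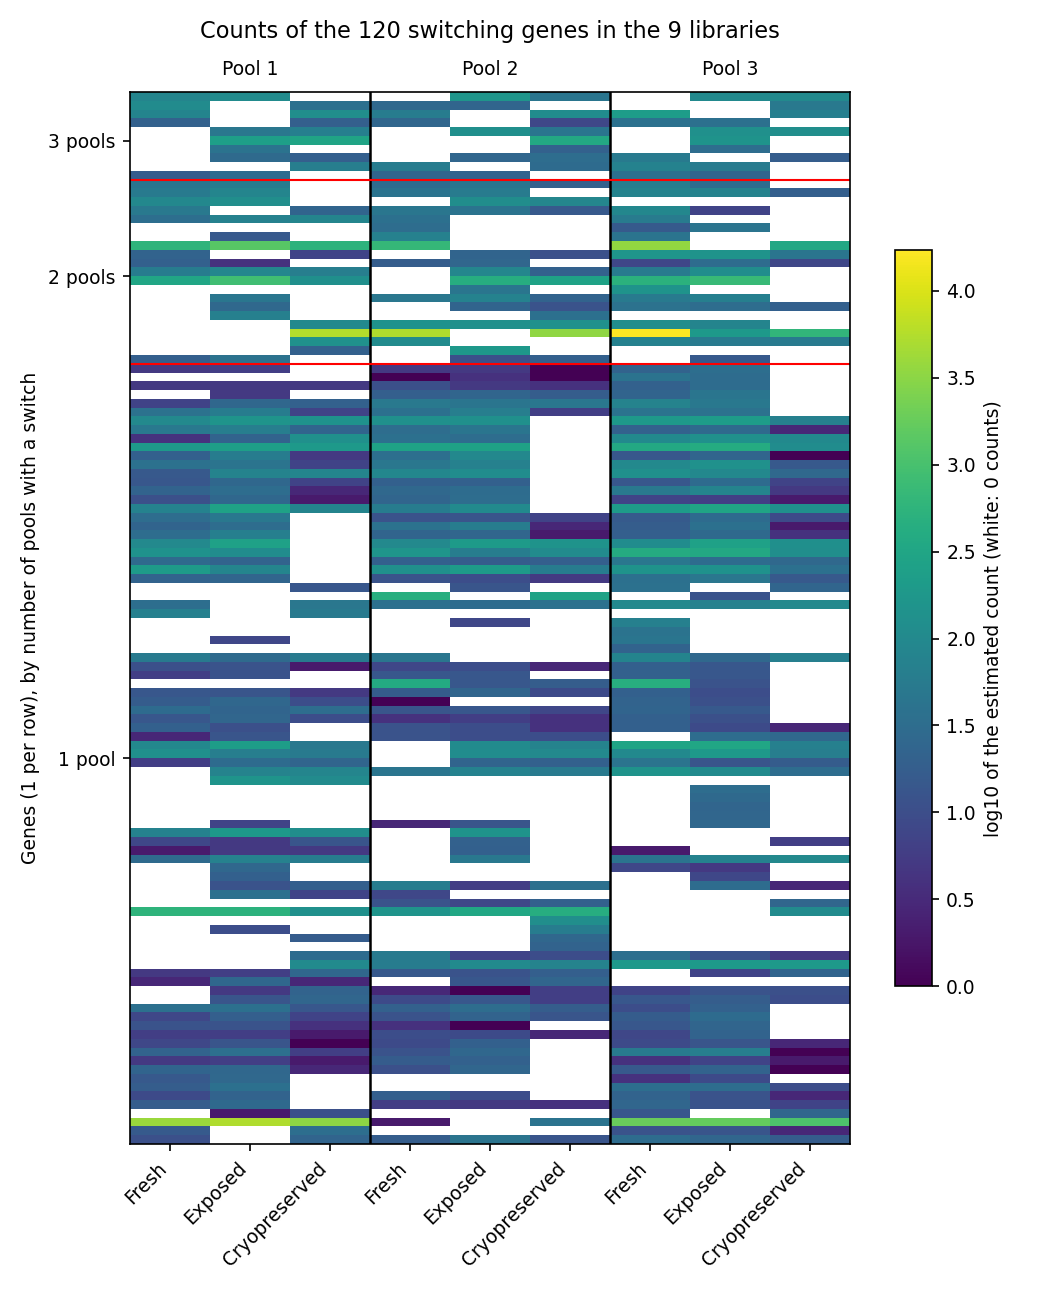
Estimated counts of the 120 switching genes (rows) in the 9 libraries (columns, grouped by pool), on a log10 colour scale with white for 0 counts. Red lines part the 10 genes that switched in 3 pools, the 21 that switched in 2 and the 89 that switched in 1 pool, and 45 of the 120 rows have a single white cell.

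The pools had similar numbers of switches, with 50 genes in pool 1, 57 in pool 2 and 54 in pool 3. These make 161 switches, of which 89 genes had a single one. Within a pool the change was mostly complete. In 117 of the 161 switches the third library was also either at 0 or at 20 counts and more, and in 44 it lay between 1 and 19 counts. The counted side had a median of 41 counts, the highest library of each switch being taken. In the folds that follow, a switch with several pairs of libraries has its largest value. Measured against the floor of 3 counts in the library at 0, the counted side was at least 13.0-fold higher at the median switch, at least 10-fold higher in 99 switches and at least 100-fold higher in 9.

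The cryopreserved library was most often the one at 0. It alone was at 0 in 66 of the 161 switches, the fresh library alone in 26 and the exposed library alone in 20. In 13 switches only the fresh library had counts, in 19 only the exposed library and in 17 only the cryopreserved one. The order of the conditions was the same with every library thinned to the smallest total, but the cryopreserved excess shrank. There, 88 genes met the rule, 81 of them among the 120, with 120 switches, of which 38 had the cryopreserved library alone at 0, 24 the fresh and 21 the exposed. Genes at 0 opposite 20 or more counts in the pool numbered 26, 31 and 41 in cryopreserved pools 1, 2 and 3. Fresh pool 2, with a total close to that of cryopreserved pool 3, had 26. The libraries set against it held 33643297 and 22814416 counts, while those set against cryopreserved pool 3 held 45051399 and 45990672. The 2 libraries are therefore not matched in the depth of the counted side. The part of depth in these zeros was not tested. No test was made on these counts, which the rule shaped.

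**Figure D2:**
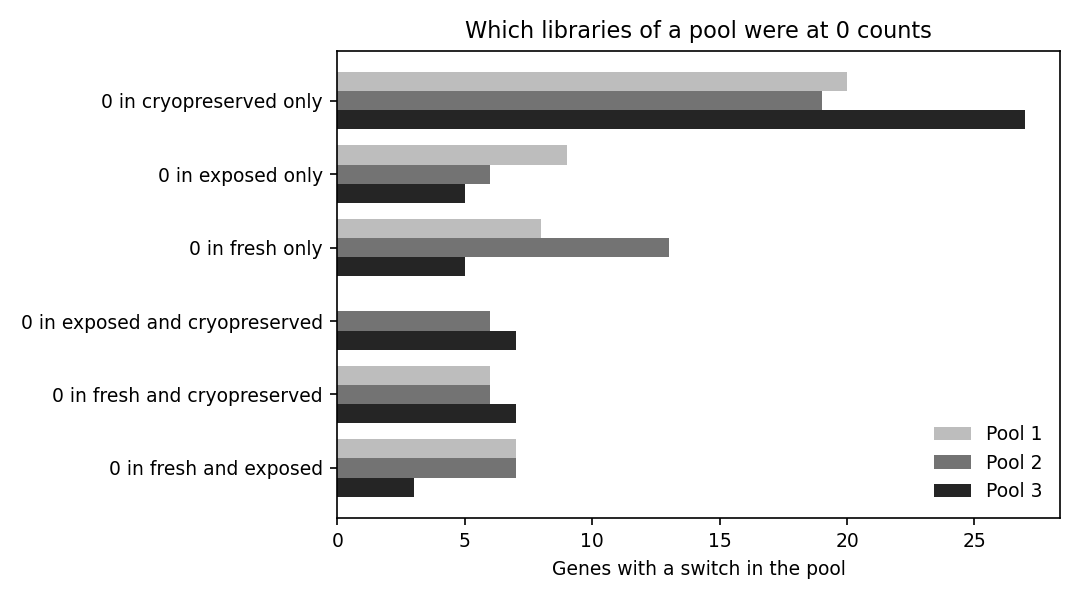
Number of switching genes by the libraries of the pool that were at 0 counts (rows), with 1 bar per pool. The longest bars are those of the cryopreserved library alone, which add to 66 of the 161 switches, and the bars of the other patterns stay at 13 genes or fewer in every pool.

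Between cryoprotectant exposed and fresh larvae, 53 genes switched in at least 1 pool, 33 of them with the exposed library as the counted one and 23 with the fresh library, 3 genes doing both in different pools. Between cryopreserved and fresh larvae there were 84 genes, 34 with counts in the cryopreserved and 58 with counts in the fresh library, 8 of them in both ways. Between cryopreserved and cryoprotectant exposed larvae there were 90 genes, 28 and 69 in these ways, with 7 in both. The comparisons share libraries, so a single zero can enter a gene in 2 of them.

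Gene 105344316 was the most regular case of counts appearing after the cryoprotectant. It had 0 counts in the fresh libraries of all 3 pools, 48, 130 and 135 counts in the exposed libraries of pools 1, 2 and 3, and 68, 44 and 122 counts in the cryopreserved libraries. The fresh libraries do not overlap with the other 6, which overlap with each other. Its level was 2.63 ± 1.32 CPM (SD, n = 3) in exposed and 3.51 ± 1.50 CPM (SD, n = 3) in cryopreserved larvae. Within the pools the exposed library was at least 12.1-fold to at least 45.2-fold above the floor of the fresh one.

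Gene 105329965 had the reverse gap. It had 0 counts in the exposed libraries of all 3 pools, against 81, 61 and 221 counts in the fresh libraries of pools 1, 2 and 3 and 124, 115 and 66 counts in the cryopreserved ones. Only the exposed libraries lacked it, although the cryopreserved larvae had been in the same solution. The level was 3.20 ± 0.98 CPM (SD, n = 3) in fresh and 4.78 ± 1.73 CPM (SD, n = 3) in cryopreserved larvae, and the groups overlap.

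Gene 105322870 was at 0 in all 3 cryopreserved libraries, with 17, 24 and 36 counts in the fresh libraries of pools 1, 2 and 3 and 30, 22 and 23 counts in the exposed ones. The cryopreserved libraries do not overlap with the rest. The counts on the other side lie between 17 and 36, close to the limit of the rule, and fresh pool 1 with 17 counts is below it. The fold against the floor was only at least 3.54 to at least 5.89 in the comparison with exposed larvae. With the libraries thinned to the smallest total, or with the limit of 20 counts scaled to depth, it switched in 0 pools in that comparison.

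None of the other named genes switched in the same comparison and direction in all 3 pools. Gene 105333861 had 0 counts in the 3 fresh libraries, 248, 0 and 152 counts in the exposed libraries of pools 1, 2 and 3, and 298, 355 and 0 counts in the cryopreserved ones. Each treated group thus has 1 pool at 0, and a different one.

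Gene 105334965 reached the highest counts of all switching genes. The fresh libraries of pools 1, 2 and 3 had 0, 5440 and 17142 counts, the exposed libraries 0, 0 and 190, and the cryopreserved libraries 5512, 3388 and 610. In pool 1 it was counted after freezing only, while in pools 2 and 3 the fresh library was the highest. Cryopreserved pools 1 and 2 stood at least 3119-fold and at least 1877-fold above the floor of the exposed libraries. With 182 ± 169 CPM in fresh, 1.23 ± 2.14 in exposed and 151 ± 116 in cryopreserved larvae (SD, n = 3), the fresh and cryopreserved groups differed by less than the spread between pools.

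Gene 109618032 had 565, 673 and 3588 counts in the fresh libraries of pools 1, 2 and 3, 1354, 0 and 0 counts in the exposed ones and 541, 0 and 340 counts in the cryopreserved ones. It was therefore present under every condition in pool 1, in fresh larvae alone in pool 2, and in all but the exposed library in pool 3. The fresh libraries of pools 2 and 3 were at least 289-fold and at least 1191-fold above the floor of the exposed libraries, while in pool 1 the exposed library was the highest.

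The remaining named genes were lower. Gene 105341982 had 0, 73 and 42 counts in fresh, 15, 0 and 0 in exposed, and 0 in all 3 cryopreserved libraries. Gene 105326695 had 44, 30 and 63 counts in fresh and 59, 45 and 31 counts in exposed larvae, against 0, 21 and 0 in cryopreserved larvae, where pool 2 kept it. Gene 105340802 had 53, 41 and 78 counts in fresh, 86, 58 and 79 in exposed and 0, 0 and 19 in cryopreserved larvae. In the latter gene the cryopreserved group lies below all 6 other libraries. Pool 3 has no switch because its cryopreserved library had 19 counts and not 0.

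**Figure D3:**
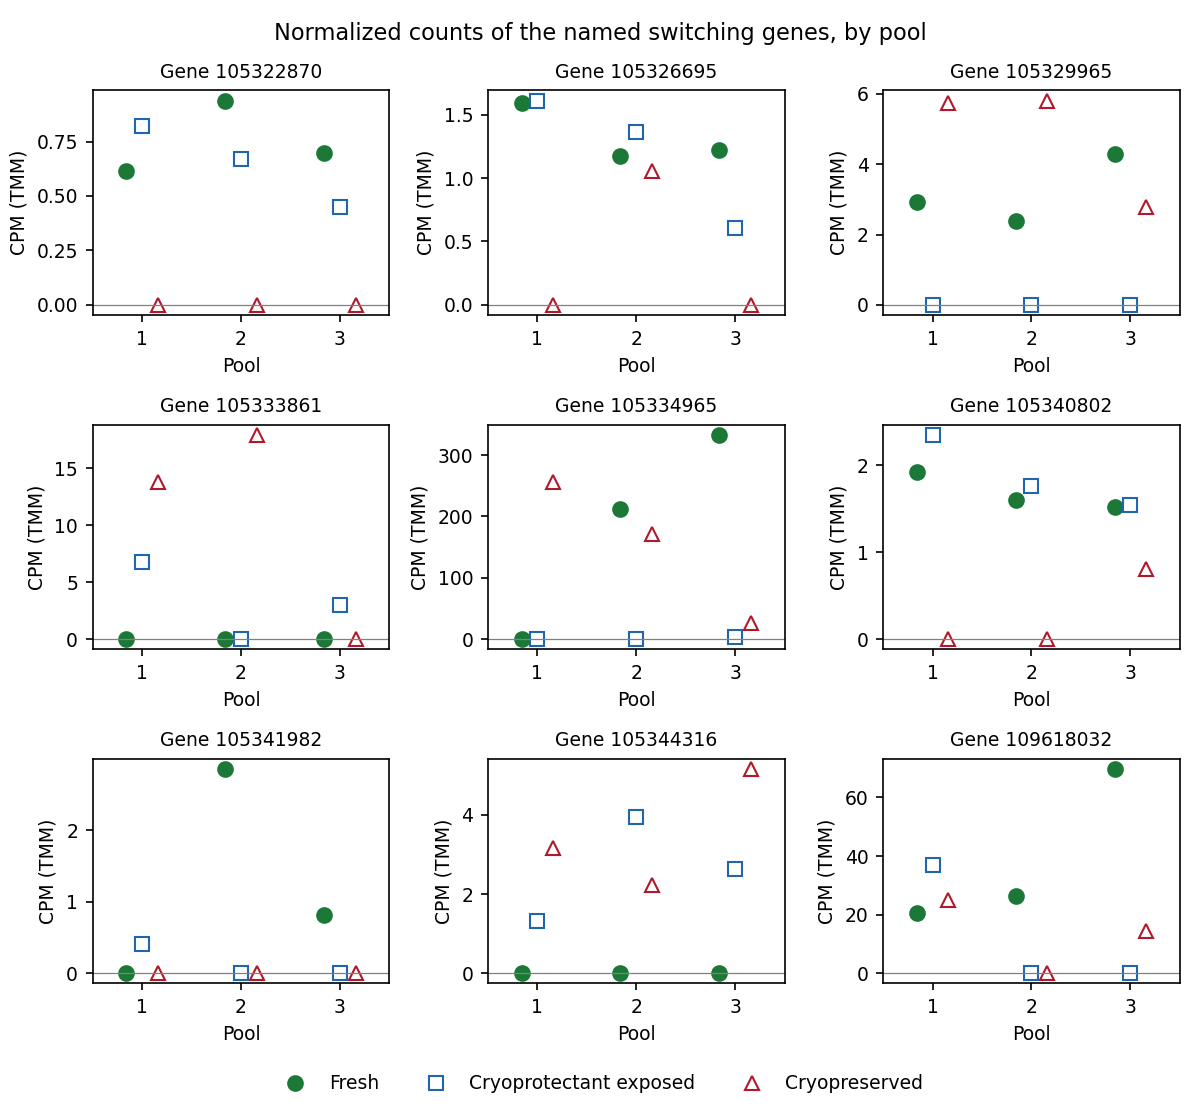
Normalized counts (CPM after TMM, linear axes that differ between panels) of the 9 named genes in each pool, with fresh larvae as filled circles, cryoprotectant exposed as squares and cryopreserved as triangles, offset sideways for sight. Genes 105344316, 105329965 and 105322870 switch in the same comparison and direction in all 3 pools, and the other 6 do not. Of those 6, genes 105333861 and 105341982 also have 1 condition at 0 in all 3 pools.

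Whether a switch recurs can be read from the pools that did not choose it. For each comparison and direction, the genes that switched in 1 pool were looked up in the other 2 pools, which gives 278 cases and 556 values. The same switch recurred in 76 of the 556 values (13.7%), and another 200 had a difference in the same direction without a switch. Both libraries were at 0 in 118, the difference was opposite in 116, and the opposite switch was seen in 46. A difference in the opposite direction thus made up 29.1% of the values. By comparison, the same switch recurred in 20% of the values for genes counted in exposed and not in fresh larvae, and in 24.1% for the reverse. The shares were 13.2% and 7.94% for cryopreserved against fresh larvae, and 18.2% and 9.33% for cryopreserved against exposed larvae, the lower share of each pair being that of genes at 0 in the cryopreserved library. With differences in the same direction but without a switch counted in, the order turned. Genes at 0 in the cryopreserved library then kept the direction in 69 of 126 values against fresh and in 85 of 150 against exposed larvae, while genes counted there kept it in 29 of 76 and 30 of 66 values. Genes that switched in several pools enter more than once.

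**Figure D4:**
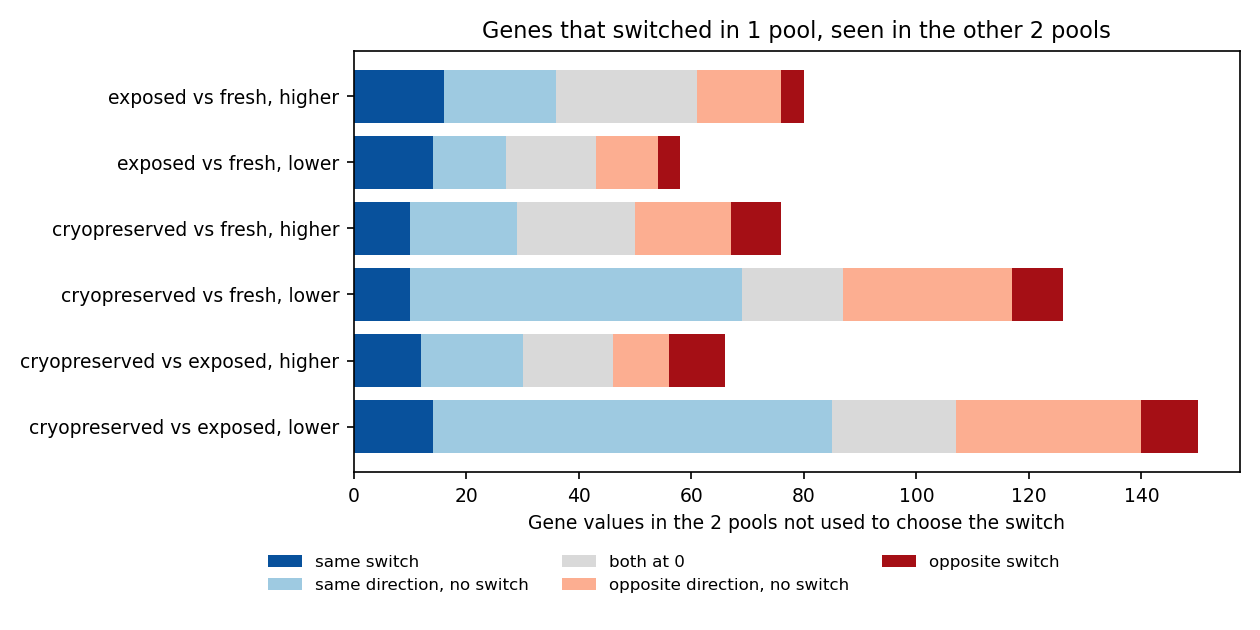
Values of the switching genes in the 2 pools that were not used to choose the switch, split by what was seen there, for each comparison and direction (the direction is that of the first condition named). The same switch (dark blue) made up 76 of all 556 values and the opposite switch (dark red) 46.

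Switches in another pool, in any way, were also counted for genes that had switched in 1 pool and for other genes in a like range of counts. Only the range was matched, so the counts within it can differ. Of the 50 genes that switched in pool 1, 24 (48.0%) switched in pool 2 or 3, and the shares were 47.4% of 57 genes for pool 2 and 38.9% of 54 for pool 3. The other genes set beside them had a highest count in the pool between 20 and the value that 90% of its switching genes did not exceed. Of these, 24 of 4985, 23 of 6560 and 28 of 4684 switched elsewhere, that is 0.481%, 0.351% and 0.598%. For switching genes within the same count range, the shares were 48.9%, 45.1% and 33.3%. These are counts over genes, which are not independent replicates, and no p-value was attached to them. The rule also read the switches in the other pools, and the other genes were not matched on zeros. Nothing is therefore read from the difference.

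In all, 31 genes switched in 2 or 3 pools. Of these, 18 repeated at least 1 switch in the same comparison and direction, 15 switched in opposite directions in different pools, 6 genes doing both, and 4 did neither. Of the 15 genes that switched both ways, 9 repeated no switch in the same direction.

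The change was also tested in the pools other than the one a case was chosen on. For each pool left out in turn, edgeR's quasi-likelihood test was fitted to all genes in the 6 libraries of the other 2 pools, with Benjamini-Hochberg adjustment over all genes tested. A gene that switched in several pools enters more than once and has switches among the values tested too, called or not. This holds for all genes called here by edgeR without a block. Called genes had an adjusted p-value under 0.05 and changed by more than 1.5 on the log2 scale, in either direction. Between cryoprotectant exposed and fresh larvae, 0 of the 69 cases were called, with a background of 0% of 69295 gene tests in either direction. Of the 52 cases that passed the filter on low counts, 39 had a fitted change in the direction of the switch. At an unadjusted p-value under 0.05, 4 of 40 cases counted in exposed larvae (10%) and 4 of 29 counted in fresh larvae (13.8%) changed in the same direction, where all genes gave 0.169% and 0.0808%, and 1 case had the opposite direction. Genes 105344316 and 105329965 each enter these cases 3 times, tested on values that the rule also used. These shares are therefore not independent of the choice of genes, and nothing is read from their excess. DESeq2's Wald test in the same design called 7 of the 69 cases, from 3 genes, against a background of 12 of the 69295 tests (0.0173%). These 3 genes are 105344316, 105329965 and 105333861, each of which switched in all 3 pools. Their tests thus used pools in which the rule had also found a switch, so their p-values are not independent of the choice. The DESeq2 adjusted p-values lay between 1.13e-05 and 4.46e-05 for gene 105329965 and between 3.49e-05 and 0.00138 for gene 105344316, each over 3 choices of the pool left out, and the value was 0.0136 for gene 105333861. The edgeR adjusted p-values for gene 105329965 in the same tests were between 0.794 and 1.

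Between cryopreserved and fresh larvae, 1 of the 101 cases was called in the direction of the switch, against a background of 0.117% of all gene tests higher and 0.17% lower. It was gene 105344316 with pool 2 left out (edgeR adjusted p = 0.0442), which had adjusted p-values of 0.063 and 0.0831 with pool 1 or 3 left out. Without the genes chosen in pool 2 the count is 0. DESeq2 called 6 cases in the direction of the switch and 1 in the opposite direction, over a background of 2.78%. Of the 87 cases tested, 49 had a fitted change in the direction of the switch, among them 14 of the 30 counted in cryopreserved larvae. When libraries of the same pool were paired through a replicate block, 10 cases from 7 genes were called in the direction of the switch and 3 cases from 2 genes in the opposite direction. The background rose with the block as well, to 1.22% higher and 2.04% lower. At an unadjusted p-value under 0.05 without the block, 4 of 38 cases counted in cryopreserved larvae (10.5%) and 8 of 63 counted in fresh larvae (12.7%) changed in the same direction, where all genes gave 6.97% and 6.9%, and 2 cases had the opposite direction. With the block these shares were 15.8% against 14.4% of all genes and 19% against 14.3%, and 7 cases had the opposite direction. Gene 105344316 enters the cases counted in cryopreserved larvae 3 times, tested on values that the rule also used. These shares too are not independent of the choice of genes, and nothing is read from their excess.

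Between cryopreserved and cryoprotectant exposed larvae, 3 of the 108 cases were called, against a background of 0.384% of gene tests higher and 0.652% lower. All 3 cases are gene 105329965, with edgeR adjusted p-values of 0.0457, 0.0287 and 0.0275 when pool 1, 2 or 3 was left out. With the replicate block there were 13 cases from 9 genes in the direction of the switch and 2 cases in the opposite direction, over a background of 1.5% higher and 2.72% lower. DESeq2 called 4 cases, over a background of 3.53%. Of the 88 cases tested, 60 had a fitted change in the direction of the switch. At an unadjusted p-value under 0.05 without the block, 5 of 33 cases counted in cryopreserved larvae (15.2%) and 12 of 75 counted in exposed larvae (16%) changed in the same direction, where all genes gave 7.81% and 8.03%, and 4 cases had the opposite direction. With the block these shares were 18.2% against 15.5% of all genes and 21.3% against 15.3%, and 8 cases had the opposite direction. Genes 105329965 and 105322870 each enter the cases 3 times, tested on values that the rule also used. Again the shares are not independent of the choice of genes, and nothing is read from their excess. In every comparison the shares of cases include those that missed the filter, while the shares of all genes are of genes tested. The genes in these counts overlap between comparisons, and 2 pools give few degrees of freedom, so a missed call does not show that a gene did not change.

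In the fit of all 9 libraries, which includes the values that chose the genes, 101 of the 120 genes passed the filter of at least 5 counts in at least 3 libraries. Of these, 0 were DEGs, genes past both thresholds, between exposed and fresh larvae, where the background was 0% of 23052 genes, 7 had an unadjusted p-value under 0.05, as did 65 of all genes (0.282%), and DESeq2 called 2, which are all the genes it called (0.00868%). Between cryopreserved and fresh larvae, 3 were DEGs over a background of 2.2%, and between cryopreserved and exposed larvae 5 were over a background of 3.01%. With the replicate block there were 20 in each of these, over 3.98% and 4.85%, and with DESeq2 9 in each, over 3.1% and 3.87%. Leaving out cryopreserved pool 2 or 3 raised the first count to 5, and leaving out fresh pool 2 or 3 lowered it to 2. The second fell to 3 without fresh pool 1 or 2 or exposed pool 2 or 3, and to 2 without exposed pool 1. Nothing is read from these shares, since the rule used the same libraries.

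The estimates of the switching genes differed from those of other genes in a property that the rule did not use. Of their 701 values above 0, 70.9% differed from a whole number by more than 0.001, against 41.7% of the values of all other genes. The gap was present in every range of mean counts, with 59.9% against 18.1% from 1 to 10 counts, 58.5% against 30.2% from 10 to 30, 90.2% against 39.3% from 30 to 100 and 88.1% against 50.3% at 100 and more. It was also present in every library, with between 67.5% and 73.8% for switching genes and between 33.5% and 49.8% for the others.

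Counted by gene, 85 of the 120 switching genes had estimates that were not whole in every library where they were counted, 21 had whole numbers throughout and 14 had a mixture. A gene counted in few libraries shows a mixture less readily, and the rule gave the switching genes zeros. The number of libraries with counts was not matched, and its part in the shares by gene was not tested. Among 6933 other genes with a highest count between 20 and 272, 22.6% had no whole estimate and 43.7% had whole numbers throughout. The switching genes were not held to this range and reached 17142 counts. The share with no whole estimate was higher for genes that switched in more pools. It was 62.9% of the 89 genes that switched in 1 pool and 93.5% of the 31 that switched in 2 or 3 pools, including all 10 genes that switched in 3 pools. All 18 genes that repeated a switch in the same direction, and 13 of the 15 that switched both ways, had no whole estimate. The values of all 9 named genes were not whole wherever they were counted. The 21 genes with whole numbers throughout were low, with a median highest count of 31 and none above 139, against a median of 65 for the 85. The part of the division of reads among transcripts in the switches was not tested.

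**Figure D5:**
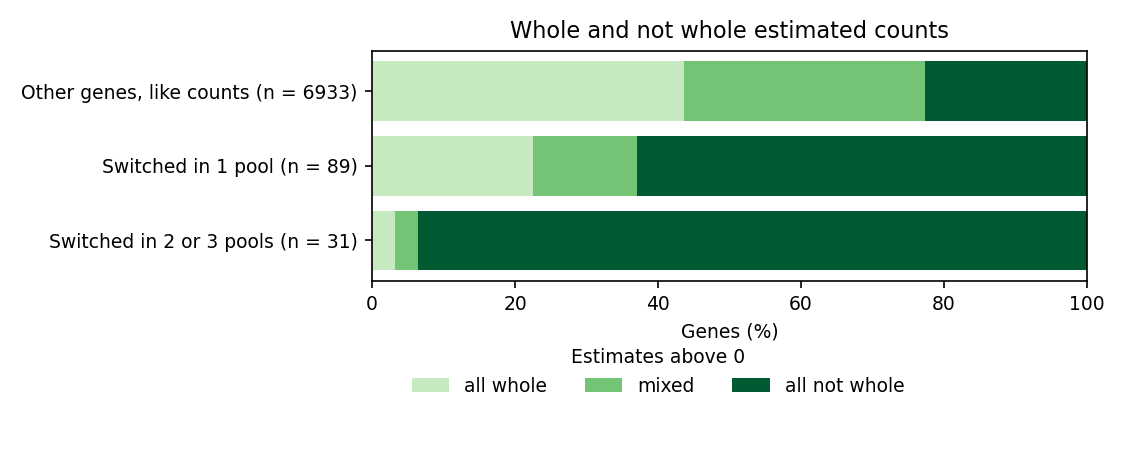
Share of genes (%) whose estimated counts above 0 were all whole, mixed, or all not whole, for 6933 other genes with a highest count of 20 to 272, the 89 genes that switched in 1 pool and the 31 that switched in 2 or 3 pools. The dark part, with no whole estimate, covers 22.6%, 62.9% and 93.5% of the genes. The switching genes were not held to this range of counts, and the number of libraries with counts was not matched.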

How the data were processed

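RNA from 9 pooled samples of D-larvae was sequenced, 3 per condition. After quality and rRNA filtering, the authors mapped reads to the genome of *Crassostrea gigas* and quantified genes with Salmon 1.1. They deposited estimated counts for each library, without normalization or filter, and these were rounded to whole numbers here. Libraries were assigned by their labels. The members and lists were chosen with earlier results of these data known.

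TMM normalization and the quasi-likelihood test were run in edgeR 4.0.16 under R 4.3.3, with a design of condition alone and 0.125 as prior count. Genes needed 5 counts in 3 of 9 libraries, or in 2 of the 6 libraries of 2 pools. DESeq2 1.42.0, RLE, library size only, no filter, a log2 fold change of 1, other count limits, thinning and a replicate block were alternatives. The fits were tested on simulated counts without differences between pools, for genes with higher counts than most switching genes. That does not show how the fits behave on the switching genes. The authors' methods state that every pool went through all conditions, and the deviations of same-numbered libraries correlated in all 9 pairs (r from 0.437 to 0.929), so the numbers were taken as pools. The genes named are, per comparison and direction, the 2 that switched in most pools, ties ranked by the counts on the counted side. No gene names, sequences or positions were used, since 0 of 28372 gene numbers matched the gene table, of assembly ASM2561291v2.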

Additional observations from a re-analysis of the deposited data

How the results depend on the processing

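The number of switching genes was 120 on the estimates before rounding, 360 with a limit of 10 counts, 48 with 50 counts, 188 with up to 1 count taken as 0, 88 after thinning, 82 with the limit scaled to depth, and from 87 to 94 with 1 pool left out. The genes that switched in more than 1 pool numbered 31, with 57 at a limit of 10 counts, 16 at 50 counts and from 14 to 20 without 1 pool, where fewer pools remain to repeat in. Of the calls in the other pools, the replicate block gave 10 for cryopreserved against fresh larvae and 13 against exposed larvae, in place of 1 and 3, and 0 again for exposed against fresh larvae. DESeq2 gave 7 for exposed against fresh larvae in place of 0 and 6 for cryopreserved against fresh larvae, where library size only gave 0 and no filter gave 2. The range without 1 pool was 0 to 1 there. In the fit of all 9 libraries, the replicate block gave 20 genes in both comparisons with cryopreserved larvae, in place of 3 and 5. DESeq2 gave 9 in both, and 2 between exposed and fresh larvae in place of 0. With 1 library left out these counts ran from 2 to 5 against fresh larvae and from 2 to 6 against exposed larvae. With a tolerance of 0.05 in place of 0.001, 62.9% of the estimates of the switching genes were not whole. The cause of these differences was not tested. Of 72 alternative values for the named genes, 67 kept the number of pools within 1.5 times. The other 5 fell, at a limit of 50 counts for genes 105341982, 105326695 and 105322870 and with thinning or scaling for gene 105322870. The low depth of the cryopreserved libraries limits what their zeros show.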
